A study of Danio rerio with 4 samples.

Results

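The chamber myosins of the zebrafish heart were followed here through 3 genes: myh6, the atrial myosin heavy chain gene (formerly amhc), myh7, the ventricular myosin heavy chain gene (formerly vmhc), and myl7, a regulatory myosin light chain gene of both chambers (formerly cmlc2). Every probe that the platform's annotation names for these symbols was taken, which gave 3 of 15528 named genes and 4 of the 43603 probes on the array: 1 for myh6 (A_15_P143331), 1 for myh7 (A_15_P119042) and 2 for myl7 (A_15_P171951 and A_15_P211626, called the brighter and the dimmer myl7 probe). Gene expression was measured with Cy3-labelled RNA on single-colour Agilent arrays. The Bmp2b group (2 arrays) came from embryos carrying the transgene Tg(hsp70l:bmp2b)fr13, which places the BMP ligand gene bmp2b behind the heat-shock promoter of hsp70l, a promoter that is not restricted to the heart. The WT group (2 arrays) came from wild-type embryos. Both groups were heat-shocked at 18 hours post fertilization (hpf) for 30 min at 37 °C and recovered until 21 to 23 hpf, when whole hearts were dissected by hand and pooled; the labels do not say how many hearts went into a pool, or whether the samples of a group were dissected independently, so p-values measure only the spread between these samples, which may be technical.

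Muscle myosin is built from a pair of heavy chains, which hold the motor, and from essential and regulatory light chains, which brace the lever arm. In zebrafish, cardiomyocytes of the future atrium and ventricle are told apart by the heavy chain they make, while myl7 is made in all of them from the start of differentiation. The ratio of atrial to ventricular heavy chain is a common readout of chamber identity, and the ratio of either to myl7 sets it against the muscle as a whole.

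In Bmp2b hearts myh6 rose, myh7 fell, and neither probe of myl7 passed the test. With the normalization used here the fall of myh7 was smaller than the rise of myh6. Its size and its call depended on the processing, as given below. The log2 fold change (Bmp2b minus WT) was 1.94 ± 0.11 for myh6, a 3.83-fold higher level, and -0.73 ± 0.14 for myh7, a 1.66-fold lower level (SE, n = 2 arrays each; limma, adjusted p = 0.0138 and 0.0440, Benjamini-Hochberg over 24454 probes). Thus 1 of the 4 probes was called higher, 1 lower, and 2 did not pass, where 15.9% of all probes tested were called, 6.82% higher and 9.03% lower. Among 803 probes at least as bright as that of myh6, 8.47% were called higher and 8.59% lower, and their median log2 fold change was 0.01. In RNA from whole dissected hearts, fewer cells of a type and less RNA per cell cannot be told apart.

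The arrays differed in overall brightness, which bears on every level below. The 75th percentile of raw intensity was 93.5 and 250 on Bmp2b arrays 1 and 2, against 445 and 424 on the WT arrays. The normalized log2 level of bmp2b was 13.74 and 14.03 on the Bmp2b arrays, against 7.86 and 8.09 on the WT arrays, so it was high on both arrays labelled as overexpressing it. The WT arrays were closer to each other than the spread between spots gives (root mean square difference 0.0733 log2 units over 20 bright probes with 5 spots each, where that spread gives 0.124), while the same figure was 0.894 for the Bmp2b arrays. The WT arrays may therefore hold 1 sample, so calls were repeated with their mean counted as 1 sample, once with limma's standard variance prior and once with an intensity trend and a robust prior. Of the 27 list genes called below that are not chamber myosins, 0 passed under either prior (lowest adjusted p 0.230 and 0.0596). The Bmp2b arrays shared 1 slide and each WT array had a slide of its own, so genotype and slide cannot be told apart.

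The raw intensity of the myh6 probe was 9573 and 24470 on the Bmp2b arrays, against 12316 and 12621.5 on the WT arrays. Before scaling, then, the groups overlapped: Bmp2b array 1 was below both WT arrays and Bmp2b array 2 above them. Set against the 75th percentile of its own array, the probe read 102 and 97.9 times that value in Bmp2b hearts. In WT hearts it read 27.7 and 29.8 times. Raw background weighs most on that percentile on Bmp2b array 1 (75th percentile 93.5, 5th percentile 25), which can lower the value there. By brightness the myh6 probe ranked 454 and 447 among all probes on the Bmp2b arrays and 1543 and 1507 on the WT arrays. Its place in the order thus moved up on both Bmp2b arrays.

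After normalization the myh6 level was 14.71 and 14.74 on the Bmp2b arrays and 12.77 and 12.81 on the WT arrays (log2 scale). The groups did not overlap, as was the case for 67.6% of all probes tested, and the Bmp2b arrays differed by 0.02, less than the WT arrays (0.04). The 95% confidence interval of the log2 fold change was 1.64 to 2.23, and 73 of 11376 genes, each represented by its brightest probe, had a larger rise. With the WT mean as 1 sample, myh6 had an adjusted p of 0.212 under limma's standard prior, where 0.00409% of probes passed, and of 0.0289 under the trend and robust prior, where 0.773% passed.

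The myh7 probe read 29698 and 56362 on the Bmp2b arrays, against 225762 and 216147 on the WT arrays. Against the 75th percentile of its array it read 318 and 225 times that value in Bmp2b hearts and 507 and 510 times in WT hearts. Background in that percentile can lower the Bmp2b array 1 value here too. Normalized levels were 16.31 and 16.07 on the Bmp2b arrays and 16.97 and 16.88 on the WT arrays. After normalization both Bmp2b arrays lay below both WT arrays, and array 2 lay lower than array 1. Of all probes tested, 67.6% did not overlap between the groups in one direction or the other. The raw values lay below both WT arrays too, but the Bmp2b arrays were dimmer as a whole, and both myl7 probes also read lower there.

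The fall of myh7 stood close to the threshold (95% confidence interval of the log2 fold change -1.12 to -0.35). It kept its sign under all 17 alternatives tried, with log2 fold changes between -1.09 and -0.46. Those that changed only the error model or the filter on probes left the value at -0.73, so the sign could not change there. The mean over probes did the same, since myh7 has 1 probe. The fall passed under 6 of the alternatives. Among these were that mean over 1 probe and the fits without a Bmp2b array. Such fits measure no spread within the Bmp2b group and rest on a WT pair that may be 1 sample. With the WT mean as 1 sample the adjusted p was 0.452 under limma's standard prior and 0.329 under the trend and robust prior.

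For myl7 the brighter probe read 72449 and 86058 on the Bmp2b arrays, against 279418 and 228896 on the WT arrays. Its normalized levels were 17.19 and 16.87 on the Bmp2b arrays and 17.31 and 16.98 on the WT arrays, so the groups overlapped. The log2 fold change was -0.11 ± 0.19 (limma adjusted p = 0.704), with a 95% confidence interval of -0.65 to 0.42. The sign turned positive without Bmp2b array 2 (0.045) and without WT array 1 (0.052).

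The dimmer myl7 probe read 21901 and 27661.5 on the Bmp2b arrays, against 123452 and 108402 on the WT arrays. Its normalized levels were 15.81 and 14.91 on the Bmp2b arrays and 16.06 and 15.91 on the WT arrays. Both Bmp2b arrays lay below both WT arrays, array 1 by little, and the gap between the Bmp2b arrays (-0.90, array 2 minus array 1) was larger than the log2 fold change of -0.63 ± 0.34 (limma adjusted p = 0.257). The probes of myl7 therefore gave different estimates, both with intervals that include 0.

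**Figure D1:**
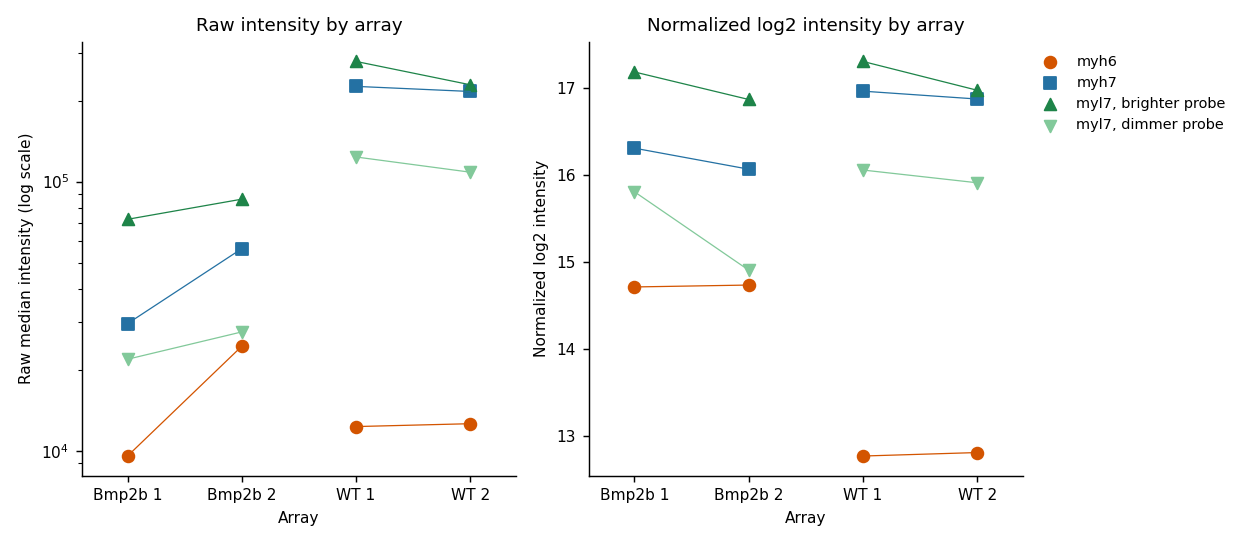
Raw median intensity (left, log scale) and normalized log2 intensity (right) of the 4 chamber myosin probes on each array, with a point for each array and a line joining the arrays of a group. After normalization the myh6 probe sat at 14.71 and 14.74 on the Bmp2b arrays and at 12.77 and 12.81 on the WT arrays, while the myh7 probe was lower on the Bmp2b arrays.

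Ratios between the genes were taken within each array, where a factor common to the array cancels. Probes differ in brightness per molecule, so only the change of a ratio between groups is read and not its size on an array. The ratio of raw myh6 to raw myh7 intensity was 0.322 and 0.434 on the Bmp2b arrays, against 0.0546 and 0.0584 on the WT arrays. The atrial to ventricular ratio was thus 6.63-fold higher in Bmp2b hearts with raw intensities and 6.37-fold higher after normalization (log2 change 2.67). Its gap between arrays of a group after normalization was 0.26 for Bmp2b and 0.13 for WT on the log2 scale, and the groups did not overlap. Without overlap, raw myh6 was also higher relative to 88.2% of 11373 other genes, and raw myh7 was lower relative to 84.2%. With 2 arrays against 2, the exact permutation test (two-sided) cannot go below p = 0.333, and it gave p = 0.333.

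The ratio of raw myh6 to the brighter myl7 probe was 0.132 and 0.284 on the Bmp2b arrays, against 0.0441 and 0.0551 on the WT arrays. After normalization it was 4.15-fold higher in Bmp2b hearts, and 5.92-fold higher when taken to the dimmer myl7 probe, and the groups did not overlap with either (exact permutation p = 0.333 for each). Both probes of the light chain thus gave a rise of the atrial heavy chain relative to it. Raw myh6 rose without overlap relative to 88.2% of 11373 other genes too, so this is not particular to myl7.

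The ratio of myh7 to myl7 depended on the myl7 probe. With raw intensities and the brighter probe it was 0.410 and 0.655 on the Bmp2b arrays, against 0.808 and 0.944 on the WT arrays, and after normalization it was 1.54-fold lower in Bmp2b hearts with no overlap (exact permutation p = 0.333). With the dimmer probe it was 1.36 and 2.04 on the Bmp2b arrays, against 1.83 and 1.99 on the WT arrays, so the groups overlapped and the log2 change after normalization was -0.10 (exact permutation p = 1). Raw myh7 was lower without overlap relative to 84.2% of 11373 other genes. The lack of overlap with the brighter myl7 probe is thus not particular to that gene. The 3 ratios of the brightest probes were the planned family, and those to the dimmer myl7 probe were added after seeing the data. By the permutation test no ratio can pass a threshold of 0.05 in this design, adjusted or not.

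**Figure D2:**
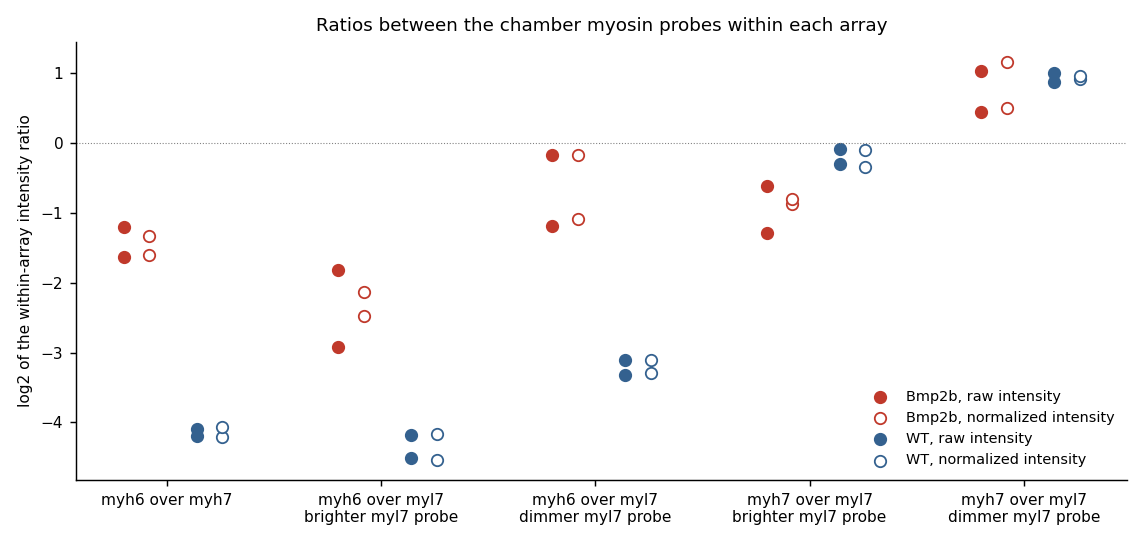
Log2 of the ratio between 2 chamber myosin probes within each array (vertical axis), for raw (filled) and normalized (open) intensities, with a point for each Bmp2b array (red) and each WT array (blue). The ratios with myh6 on top lie higher on both Bmp2b arrays, while that of myh7 to the dimmer myl7 probe overlaps between the groups.

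The same within-array ratio was taken against 14 other heart muscle genes, a list that includes the troponin gene tnnt2a, the transcription factor gene nkx2.5, the cardiac actin gene actc1a and the calcium pump gene atp2a2a. Raw myh6 was higher relative to all 14 on both Bmp2b arrays than on either WT array, with log2 changes from 0.23 (nppa) to 3.94 (mef2ca) and a median of 2.10. The same held relative to 88.2% of 11373 other genes, so the count is read against that share. For 1.78% of the other genes myh6 was lower in the same way. Raw myh7 was lower relative to 9 of the 14, higher relative to 2 (mef2ca and tnnc1a) and overlapped for 3 (tnnt2a, tbx5a and tnni1b). Its median log2 change against the 14 was -0.63, and over all other genes 84.2% of its ratios were lower and 3.64% higher without overlap. For tnnt2a and tnni1b the log2 change of the ratio was 0.06 and -0.03 with raw intensities. With normalized intensities the log2 fold change of tnnt2a was -1.14 (limma adjusted p = 0.0469), beside -0.73 for myh7. That of tnni1b was -0.71 and did not pass (limma adjusted p = 0.139). Each of the 14 stands on its brightest probe, and ratios to further probes were not taken. Normalized second probes were at -0.43 for tnnt2a, -0.81 for atp2a2a (brightest -0.01) and -0.54 for tnnc1a (brightest -0.95). For cmlc1 the second probe was close to the first (-0.70 and -0.62). The counts for myh7 can thus depend on the probe chosen. The brighter myl7 probe was higher relative to 6 of the 14, lower relative to 5 and overlapped for 3, with a median of 0.13, while relative to all other genes it was higher for 9.14% and lower for 37.5%. Raw intensities carry background, which weighs most on dim genes such as tbx5a. The 5th percentile of raw intensity was 25 and 24 on the Bmp2b arrays, against 16.5 and 16 on the WT arrays. This can lower raw ratios to dim genes on the Bmp2b arrays. Over all other genes it can thus reduce the shares counted as higher and increase the shares counted as lower. The median raw log2 change over all other genes was 1.61 for myh6, -1.11 for myh7 and -0.36 for myl7. After normalization their log2 fold changes were 1.94, -0.73 and -0.11.

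Other genes of the thick filament were lower or did not pass. Of 9 measured partners and further heart myosins, 0 rose (1 at an unadjusted p under 0.05), 4 fell and 5 did not pass (limma; 9.00% of 11376 genes were called higher and 8.22% lower), with a median log2 fold change of -0.71 against 0.01 over all genes. The 4 that fell were mybphb, for a myosin-binding protein (-1.37 ± 0.13, adjusted p = 0.0204), mylk3, for the cardiac kinase of the regulatory light chain (-0.91 ± 0.11, adjusted p = 0.0247), myom1a, for an M-band protein (-0.97 ± 0.17, adjusted p = 0.0398; above background on 1 of the 2 Bmp2b arrays), and the titin gene ttn.2 (-0.82 ± 0.15, adjusted p = 0.0425). Of 9 further ttn.2 probes 2 also fell and 7 did not pass, and neither of the 2 further myom1a probes passed. With the mean over the probes of a gene both calls ended (ttn.2 -0.48, adjusted p = 0.0983; myom1a -0.65, adjusted p = 0.0562). The brightest probe of mybpc3, at -0.10, did not pass. Its further probes were at -0.15, 0.11 and -1.29, and the last passed (limma adjusted p = 0.0467). On Bmp2b array 2 the median of the list was -0.93 and on array 1 it was -0.36.

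The partner with the largest positive value was myh7l, a ventricular-type heavy chain gene (formerly vmhcl) that neighbours myh7 in the zebrafish genome. Its brightest probe read 13.98 and 13.15 on the Bmp2b arrays and 12.46 and 12.55 on the WT arrays. This log2 fold change of 1.05 ± 0.31 did not pass (limma adjusted p = 0.0934), nor did 3 further myh7l probes with values of 0.37, -0.51 and 0.27. The essential light chain gene cmlc1 had log2 fold changes of -0.62 and -0.70 on its 2 probes, close to the value of myh7, and neither passed (adjusted p = 0.162 and 0.237). Whether the myh7 and myh7l probes read each other's transcripts was not tested, since no probe sequence was used here.

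Of 10 measured genes for myosin folding and turnover, 0 rose (also at an unadjusted p under 0.05), 2 fell and 8 did not pass, with a median of -0.42. The 2 were unc45b, the muscle chaperone of the myosin head (-0.60 ± 0.12, adjusted p = 0.0495), and trim55b, for a sarcomeric ubiquitin ligase (-0.92 ± 0.13, adjusted p = 0.0284). Dimmer probes of hsp90aa1.2 (-2.16) and trim63a (-0.75), genes counted as not passing, were lower and passed (limma adjusted p under 0.05). The counts of this paragraph stand beside the same 9.00% higher and 8.22% lower over all genes. Of 27 thin-filament and calcium-handling genes, 1 rose (actn2b, for an alpha-actinin), 3 fell (casq2, acta1b and tnnt2a) and 23 did not pass, with a median of -0.36. A second probe of each of the 3 did not pass: that of casq2 had the opposite sign (0.72, against -1.39 for the first), and those of acta1b and tnnt2a read -0.46 and -0.43, against -1.53 and -1.14. With the mean over probes casq2 was at -0.34 (adjusted p = 0.367) and tnnt2a at -0.79 (adjusted p = 0.103), so both calls ended, while acta1b was at -0.996 and passed (adjusted p = 0.0410). Some genes counted as not passing had a further, dimmer probe that was lower and passed (limma adjusted p under 0.05). These were tpma (-2.10), tpm4a (-1.19), tpm4b (-0.86, against 0.91 for its brightest), atp2a2a (-0.81) and ldb3a (-0.90 and -0.76). No further probe of this list passed higher. Myosins listed for other cells showed no shared direction. Of 10 genes listed as skeletal muscle myosins 1 was higher (smyhc2, not above background in WT hearts, at least 2.14-fold) and 9 did not pass. Of 9 smooth muscle and non-muscle myosin genes 1 rose (myl9a, 1.26), 1 fell (myl9b, -1.25) and 7 did not pass. In the skeletal muscle list myl10 was about as bright in these hearts as myh7 (16.21 and 16.94 on the Bmp2b arrays, 16.41 and 16.30 on the WT arrays). The gene myl10 was counted as not passing (0.22), but its second probe was at -1.87 and passed (limma adjusted p = 0.0150).

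A list of chamber and atrioventricular regulators, which also holds the natriuretic peptide genes nppa and nppb, included members that rose and members that fell. Among 30 measured genes 5 were higher, 3 were lower and 22 did not pass, and the median was 0.17; over all genes 9.00% were higher and 8.22% lower, so the share lower was close to that of all genes. Higher was nr2f5, a COUP-TF nuclear receptor gene of the family that in zebrafish and mouse maintains atrial identity (11.54 and 11.58 on the Bmp2b arrays, 10.08 and 10.18 on the WT arrays; log2 fold change 1.43 ± 0.11, adjusted p = 0.0190). Its relatives nr2f1a and nr2f2 had log2 fold changes of 0.99 and -0.22 and did not pass (adjusted p = 0.0655 and 0.403). Lower was irx4a, whose homologue in chick promotes ventricular and represses atrial myosin (9.68 and 9.14 on the Bmp2b arrays, 11.03 and 10.98 on the WT arrays; -1.60 ± 0.22, adjusted p = 0.0275). A second irx4a probe, at -0.71, did not pass (adjusted p = 0.0510). The T-box repressors of chamber genes tbx3a and tbx2a rose by 2.16 and 1.16, and nppa and nppb, which encode natriuretic peptides of chamber muscle, by 1.47 and 1.53. mef2ca, for a factor of heart muscle differentiation, and tbx5a fell by 1.96 and 0.91. A second tbx2a probe, at 0.23, did not pass (adjusted p = 0.344), nor did a second tbx5a probe at -1.14 (adjusted p = 0.0594). The brighter relative tbx2b, at 0.20, did not pass (limma adjusted p = 0.388), nor did its second probe at -0.35 (limma adjusted p = 0.130). With the mean over probes tbx2a was at 0.70 and nppa at 0.96, and both passed. The brightest gata5 probe, at 0.50, did not pass, while a second, at -0.58, did (limma adjusted p = 0.0432).

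**Figure D3:**
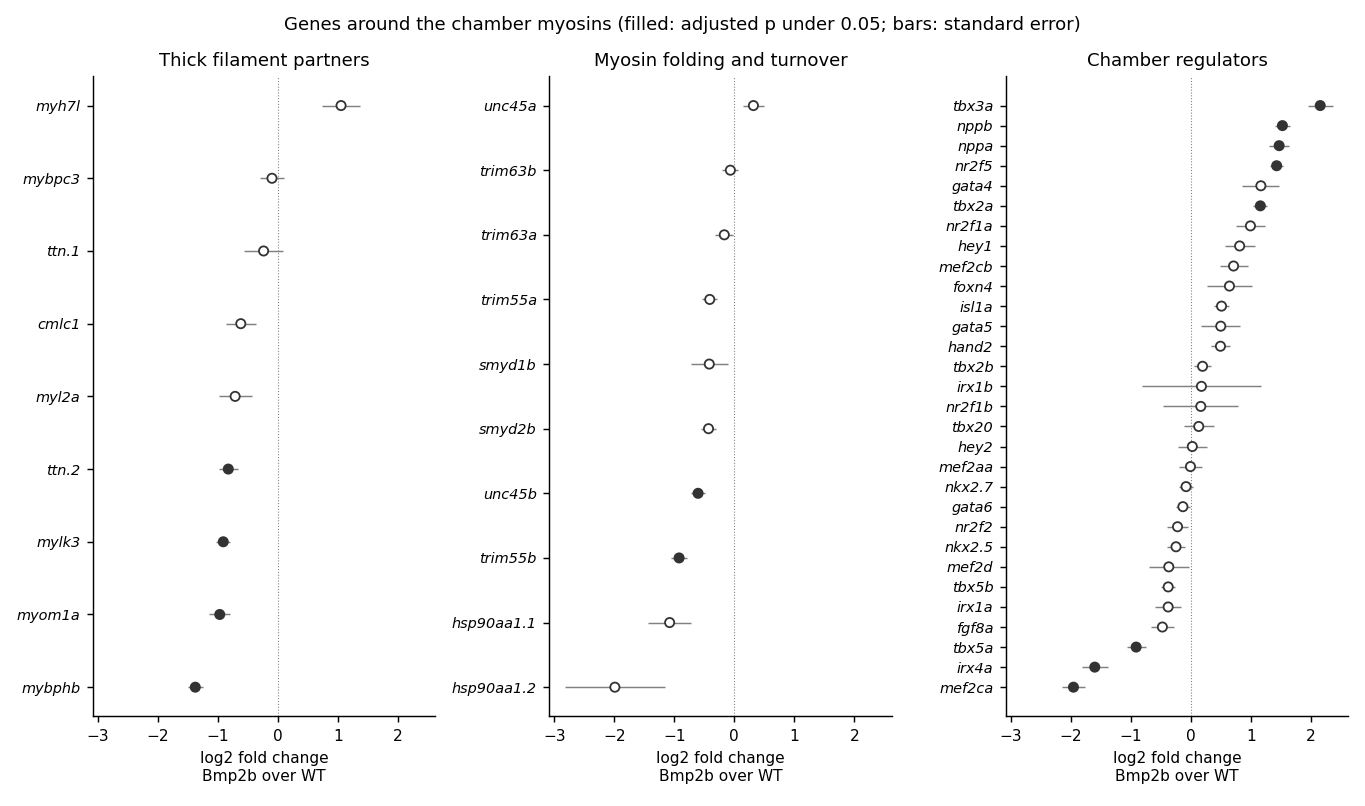
Log2 fold change (Bmp2b over WT, horizontal axis) of each measured gene of 3 lists around the chamber myosins, with bars for the standard error and filled points for an adjusted p under 0.05. In the thick filament list all filled points are negative (-1.37 to -0.82), while chamber regulators have filled points on both sides of 0.

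Heart muscle markers were present on all arrays: 17 of 18 were tested, and the 17 lay above background on all 4 arrays. Their summed level was 20.08 and 19.66 on the Bmp2b arrays and 20.33 and 20.20 on the WT arrays (log2 of summed normalized intensity). This list includes myh6, myh7 and myl7 themselves. Of the 17, 2 were higher, 4 lower and 11 did not pass (limma), where 9.00% of all genes were called higher and 8.22% lower. Markers of other tissues were counted too, and their calls stand beside the same 9.00% higher and 8.22% lower over all genes. The summed level of 21 epidermal markers was 18.29 and 18.35 on the Bmp2b arrays and 17.11 and 17.15 on the WT arrays, and 3 of them rose, krt8, krt18a.1 and icn. Without these 3 the sum of the other 18 was 13.60 and 16.53 on the Bmp2b arrays and 14.09 on both WT arrays. Of the 21, 13 lay above both WT arrays on Bmp2b array 1 and 6 below both. Among the 6 was krt5 (8.55, against 10.85 and 10.88 on the WT arrays). On Bmp2b array 2 all 21 lay above both WT arrays. How many of all genes lay outside both WT values on a single Bmp2b array was not counted, so these counts lack a share to stand beside. Of all probes tested, 67.6% did not overlap between the groups. The summed level of 25 neural markers was 15.40 and 16.16 on the Bmp2b arrays and 15.51 and 15.55 on the WT arrays. Of the 25, 23 were higher on Bmp2b array 2 than on array 1, and the share of all genes so placed was not counted. None of the 25 passed by its brightest probe (limma, 2 at an unadjusted p under 0.05). Of the dimmer elavl4 probes, at -0.42, -0.07, -1.25 and 0.32, that at -1.25 passed (limma adjusted p = 0.0494). On array 2 the normalized level of myh7 and both myl7 probes was lower than on array 1, while that of myh6 differed by 0.02. The summed level of 19 skeletal muscle markers was 17.05 and 16.70 on the Bmp2b arrays and 17.64 and 17.37 on the WT arrays. This list shares actin genes with heart muscle, and these bright genes weigh most in the sum. By gene, 13 of the 19 had a positive log2 fold change, with a median of 0.31. Of the 19, 1 was higher (smyhc2), 1 lower (acta1b) and 17 did not pass (limma). The listed genes myf6 and pvalb1 were below background on all arrays. Of 23 blood and endothelial markers 0 rose (2 at an unadjusted p under 0.05, limma) and 3 fell (tal1, lmo2 and sox18, the last not above background in Bmp2b hearts and at least 1.27-fold lower), and of 13 endoderm and yolk markers 0 passed (3 at an unadjusted p under 0.05). The part of these tissues in the myosin values was not tested.

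The named genes with profiles most like each member over the 4 arrays were found by the root mean square difference of log2 levels, each centred on its own mean, among 10621 other genes. For myh6 these were stc2a, a stanniocalcin gene (0.0263), nrp2a, for a neuropilin co-receptor (0.0287), and nme3, for a nucleoside diphosphate kinase (0.0310), all with log2 fold changes of 1.93 to 1.97. For myh7 they were arrb2a, a beta-arrestin gene (0.0124), klhl11 (0.0236) and crot, for a peroxisomal carnitine transferase (0.0269), with log2 fold changes of -0.78 to -0.72. For myl7 they were dok6, slc2a2 and rtn4rl2a, at 0.0181 to 0.0304, which lay near background (mean log2 level 6.36 to 6.86), so the likeness is to probes that hardly varied. No heart muscle gene of the lists was among these 9. Log2 fold changes close to that of the member follow from how the 9 were picked. On the WT arrays stc2a lay near background too (6.16 and 6.17).

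**Figure D4:**
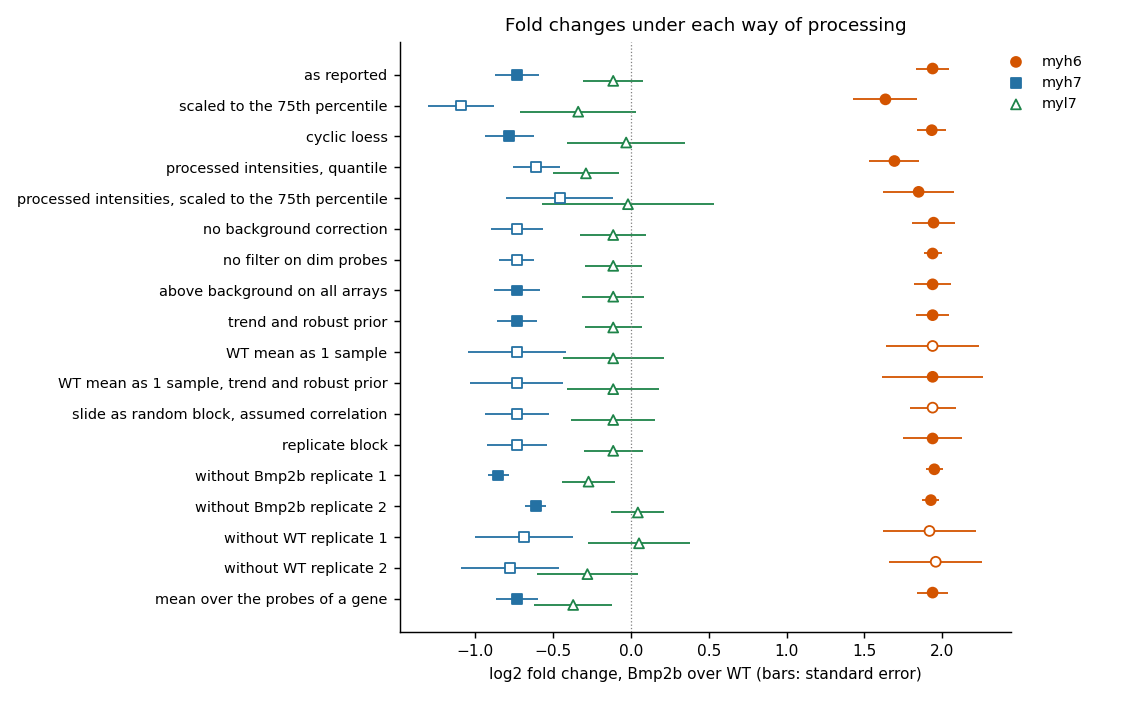
Log2 fold change (Bmp2b over WT, horizontal axis) of myh6 (circles), myh7 (squares) and the brighter myl7 probe (triangles; mean of both in the last row) under each way of processing, with bars for the standard error and filled symbols for an adjusted p under 0.05. The myh6 values lie between 1.63 and 1.96, those of myh7 between -1.09 and -0.46, and those of myl7 on both sides of 0.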

How the data were processed

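RNA from 2 Bmp2b and 2 WT heart samples was measured, with 200 ng of total RNA (RNA integrity number above 8) amplified once per sample, per the labels. The submitters' processing notes name Agilent Feature Extraction; no version of it was given. The authors deposited raw median spot intensities, a table of processed intensities of the same 43803 spots and a value table of 43553 probes with the same processed values; how background was removed from them is not given in the sources used here. No saturation or control flags were used.

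From the raw intensities, each array was corrected by normexp (offset 50), log2-transformed and quantile-normalized, and spots of a probe were averaged. Probes above 2 times the array's 5th percentile on at least 2 of 4 arrays were tested with limma 3.58.1 in R 4.3.3 (lmFit, eBayes, two-sided, Benjamini-Hochberg over 24454 probes, threshold 0.05). The fit was tested on simulated data. Probes were named through the platform annotation (23667 with 1 symbol, 19936 with none), and 0 symbols changed against the assembly GRCz12tu gene table. A gene is its brightest tested probe. Named were the members, the 3 nearest profiles of each, and list genes past the threshold; krt8 and other single genes outside the rule were picked after their values were seen. A gene dim on all arrays of a group was given a fold of at least the bright group's mean over the dim group's, with each dim array raised to its lowest value above background. The members and lists were chosen with earlier results of these data known. With 4 arrays, their number limits the precision.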

Additional observations from a re-analysis of the deposited data

How the results depend on the processing

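All alternatives kept myh6 higher (log2 fold change 1.63 to 1.96) and myh7 lower (-1.09 to -0.46) in Bmp2b hearts. The myh6 call ended with the WT mean as 1 sample (1.94, adjusted p = 0.212), with a random block for slide (correlation set to 0.5) (1.94, adjusted p = 0.0807) and without either WT array; leaving out 1 array gave 1.92 to 1.96, with adjusted p from 0.00300 to 0.224. The myh7 call ended with scaling to the 75th percentile (-1.09, adjusted p = 0.0628), with the processed intensities (-0.61 with quantile normalization and -0.46 with the 75th percentile, adjusted p = 0.0875 and 0.414), without background correction (-0.73, adjusted p = 0.0584), without the filter on dim probes (0.0506), with the WT mean as 1 sample (0.452, or 0.329 with the trend and robust prior) and with slide as a random block (0.181). Leaving out 1 array gave -0.85 to -0.61 for myh7 (adjusted p 0.00488 to 0.479) and -0.28 to 0.052 for myl7, which turned positive without Bmp2b array 2 (0.045) and without WT array 1 (0.052). Scaling to the 75th percentile moved the median of all probes to 0.28, against -0.06 as reported, and relative to that median the values were 1.35 for myh6, -1.37 for myh7 and -0.62 for myl7.

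With the replicate number of the titles as a replicate block, myh7 had a log2 fold change of -0.73 with an adjusted p of 0.0604 and myh6 one of 1.94 with an adjusted p of 0.00783. Same-numbered arrays deviated from their group means with r = 0.09, so the numbers are not shown to pair the samples.

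The log2 change of myh6 over myh7 was 2.30 and 2.31 with the processed intensities (quantile and 75th percentile), against 2.67 as reported, and 2.54 to 2.80 leaving out 1 array. That of myh6 over myl7 was 2.31 with the mean of the myl7 probes and 2.57 with the dimmer probe, against 2.05, and 1.87 to 2.24 leaving out 1 array. That of myh7 over myl7, -0.62 as reported, was -0.75 with the 75th percentile, with cyclic loess and with raw intensities, -0.32 and -0.44 with the processed intensities (quantile and 75th percentile), -0.36 with the mean of the myl7 probes and -0.10 with the dimmer probe, and -0.74 to -0.50 leaving out 1 array. Raw intensities and the choice of the dimmer probe were added after seeing the data.

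Over all probes, 1668 were higher and 2208 lower. These counts were 493 and 378 with the 75th percentile, where 56.6% of calls were higher, against 43.0% as reported, and 824 and 1217 with the processed intensities scaled so. With the processed intensities and quantile normalization 1067 were higher. limma called 0 higher and 1 lower with the WT mean as 1 sample (2954 at an unadjusted p under 0.05) and with slide as a block (5172), and 76 and 113 with the WT mean as 1 sample and the trend and robust prior. Leaving out 1 array gave 0 to 7462 higher and 1 to 9565 lower: without either WT array limma called 0 higher (2921 and 3075 at an unadjusted p under 0.05), and without either Bmp2b array the spread is that of the WT arrays alone. Of probes above background on all 4 arrays 52.4% of calls were higher. The slide block with an estimated correlation gave no estimate and was not run. The 18 genes called in the thick filament, folding, thin filament and regulator lists reversed under 0 alternatives; 12 lost their call with the 75th percentile, 4 with the mean over the probes of a gene, and all 18 with the WT mean as 1 sample, with slide as a block and without either WT array.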
